A study of Mus musculus with 4 samples.

Results

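The guanylate-binding proteins (GBPs) and the immunity-related GTPases (IRGs) are represented here by 9 genes: Gbp2, Gbp3, Gbp5, Gbp7 and Gbp9 of the first family, and Igtp, Irgm1, Irgm2 and Iigp1 of the second. The 9 genes were picked by name from 55421 genes listed per library, with their values in the comparison described here already known, so their levels and fold changes are a description and carry no test. All 9 were among the 17144 genes that passed the filter on low counts. A further 19 genes annotated as GBPs or IRGs were listed beside them.

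The cultures came from the prefrontal cortex (PFC) of wild-type C57BL/6 mice at P0, the day of birth. The dissociated cells were grown for 10 days in B27-supplemented neurobasal medium, either with fibroblast growth factor 2 (FGF2, a growth factor for neural precursors) at 5 ng/mL or without FGF2. RNA sequencing of total RNA gave 2 libraries per condition, and the 2 conditions shared genotype, strain, age and culture time. The labels do not say whether the 2 libraries of a condition came from separate animals or cultures, and the study's methods, in a passage on the human cultures, call libraries other than those of 2 fetal ages technical replicates. The p-values therefore measure the spread between libraries, which may be technical.

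GBPs and IRGs are GTPases of cell-autonomous immunity. In mouse cells they are known as targets of interferon, above all of interferon gamma, and they assemble on the vacuoles of intracellular parasites and bacteria, where they help to break the vacuole membrane. Among the IRGs, Irgm1, Irgm2 and Igtp (also called Irgm3) are known as regulators that keep effector IRGs such as Iigp1 (Irga6) inactive on the membranes of the cell itself.

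The 4 libraries held 9166432 to 10799886 counts on genes, and 3 counts corresponded to 0.278 to 0.327 CPM, the unit of counts scaled to library size. Across all genes tested, 3541 (20.7%) were higher and 3408 (19.9%) were lower with FGF2 (edgeR quasi-likelihood test, adjusted p below 0.05). Both libraries with FGF2 lay above both without FGF2 for 33.6% of the tested genes. Astrocyte, oligodendrocyte lineage and neuronal markers were all present, which fits the tissue named in the labels. Of 9 endothelial markers listed, only Cldn5 had 0 counts in every library. Pecam1, Flt1, Kdr and Esam had counts in all 4 libraries, while Cdh5, Tek, Emcn and Ly6c1 had at most 5 counts in any library. Whether endothelial cells were present was not tested.

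The promoters of the members were read first, since the interferon response of these families is known to run through short motifs close to the start site. RefSeq gave windows of 250 bases before to 50 bases after the start (GRCm38.p6) for 7 of the 9 members, with 2 windows for Gbp3. Each window was searched on both strands for the interferon-stimulated response element (ISRE, GAAANNGAAA), for the gamma-activated site (GAS, TTCNNNGAA) and for the kappaB motif by its name. Capitals mark the matches, and a match on the opposite strand reads as the reverse complement. The windows of Gbp5 (chr3:142496684-142496983, plus strand) and Gbp2 (chr3:142620413-142620712, plus strand) are shown whole, because these genes had the highest fold changes of the 9.
Gbp5: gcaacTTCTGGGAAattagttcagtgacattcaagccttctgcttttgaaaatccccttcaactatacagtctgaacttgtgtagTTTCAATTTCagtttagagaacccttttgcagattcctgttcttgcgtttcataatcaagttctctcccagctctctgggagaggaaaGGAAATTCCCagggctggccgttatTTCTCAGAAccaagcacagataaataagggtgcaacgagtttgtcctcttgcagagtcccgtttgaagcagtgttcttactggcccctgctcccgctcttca
Gbp2: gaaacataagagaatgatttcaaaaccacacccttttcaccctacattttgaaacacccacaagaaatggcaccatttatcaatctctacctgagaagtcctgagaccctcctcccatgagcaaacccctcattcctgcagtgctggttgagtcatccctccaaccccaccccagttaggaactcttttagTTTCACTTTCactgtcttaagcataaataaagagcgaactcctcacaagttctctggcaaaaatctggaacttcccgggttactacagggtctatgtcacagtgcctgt
The Gbp5 window held 1 ISRE, with its first base at position -165 from the start, 2 GAS matches at -245 and -52 and the only kappaB match among the members, at -77. In the Gbp2 window the ISRE began at -59, and no other motif was found.

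For the other 5 members with an ISRE, the 110 bases before the start are shown, because they hold every match in these windows. The windows lie at chr3:142559794-142560093 for Gbp3 and chr3:142530086-142530385 for Gbp7, both on the plus strand. They lie at chr11:48871371-48871670 on the minus strand for Irgm1, and on the plus strand at chr11:58199306-58199605 for Igtp and chr11:58214727-58215026 for Irgm2.
Gbp3: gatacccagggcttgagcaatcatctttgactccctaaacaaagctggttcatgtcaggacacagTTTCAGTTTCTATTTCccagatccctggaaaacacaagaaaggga
Gbp7: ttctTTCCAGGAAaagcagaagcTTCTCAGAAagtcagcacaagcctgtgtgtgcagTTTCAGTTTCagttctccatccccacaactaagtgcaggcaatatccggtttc
Irgm1: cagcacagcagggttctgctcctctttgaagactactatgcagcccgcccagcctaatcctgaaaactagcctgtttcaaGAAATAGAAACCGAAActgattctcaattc
Igtp: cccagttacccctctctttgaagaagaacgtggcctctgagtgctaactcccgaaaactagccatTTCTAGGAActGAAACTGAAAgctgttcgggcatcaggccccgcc
Irgm2: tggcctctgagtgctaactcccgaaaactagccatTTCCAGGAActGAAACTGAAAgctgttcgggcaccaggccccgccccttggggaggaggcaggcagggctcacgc
In Gbp3 and in Irgm1, 2 overlapping ISRE matches ran together, beginning at -45 and -39 in Gbp3 and at -30 and -24 in Irgm1. In Igtp and Irgm2, a GAS match was followed after 2 bases by an ISRE match. The whole windows of Igtp and Irgm2 were 90.4% identical over 270 aligned bases. The second Gbp3 window held no match.

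An ISRE match was thus present for 7 of 7 members with a window, against 3.44% of 32851 promoter windows of all genes. In this and the following shares, members were counted as genes and the background as windows, and the 7 members had 8 windows. GAS matches were present for 4 of 7, namely Gbp5, Gbp7, Igtp and Irgm2, against 8.30% of all windows, and the kappaB motif for 1 of 7 against 4.51%. Both ISRE and GAS were found for those 4 members, against 0.454% of all windows. Matches were also present in family genes without counts. Gbp2b has an ISRE match and had 0 counts in all 4 libraries, and Tgtp1 has both motifs and also had 0 counts throughout. Tgtp1 is 99.8% identical to Tgtp2 over 2811 bases, so reads from it could have been removed. These matches are letters in a sequence, and no binding was measured.

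The 5 GBP members were all higher with FGF2, and the size of the difference varied widely among them. Gbp5, which is known to promote assembly of the NLRP3 inflammasome, had 263 and 250 CPM with FGF2 and 3.05 and 3.60 CPM without FGF2. This gave a log2 fold change of 6.26 ± 0.10 (SE), a 77.2-fold ratio of the means. In rank of fold change among all tested genes Gbp5 stood at place 16.

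Gbp2, one of the GBPs best known for coating parasite vacuoles, had 193 and 190 CPM with FGF2 and 11.6 and 10.6 CPM without FGF2. Its log2 fold change was 4.10 ± 0.09, a 17.2-fold ratio, at place 41 of all tested genes. For both Gbp5 and Gbp2 the libraries of a condition lay close together, and the conditions were far apart.

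Gbp3, Gbp7 and Gbp9 formed a group with smaller and similar differences. Gbp3 had 30.8 and 30.9 CPM with FGF2 and 6.76 and 9.05 CPM without FGF2, with a log2 fold change of 1.96 ± 0.15. Gbp7, known for a role in oxidative and vacuole-directed defence, had 27.0 and 25.4 CPM against 7.52 and 7.21 CPM, and its log2 fold change was 1.83 ± 0.16. The lowest of the 5, Gbp9, had 13.9 and 9.96 CPM against 2.76 and 4.34 CPM, which gave 1.74 ± 0.23. The 3 fold changes lay within their standard errors of each other, and in each case both FGF2 libraries were above both libraries without FGF2.

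**Figure D1:**
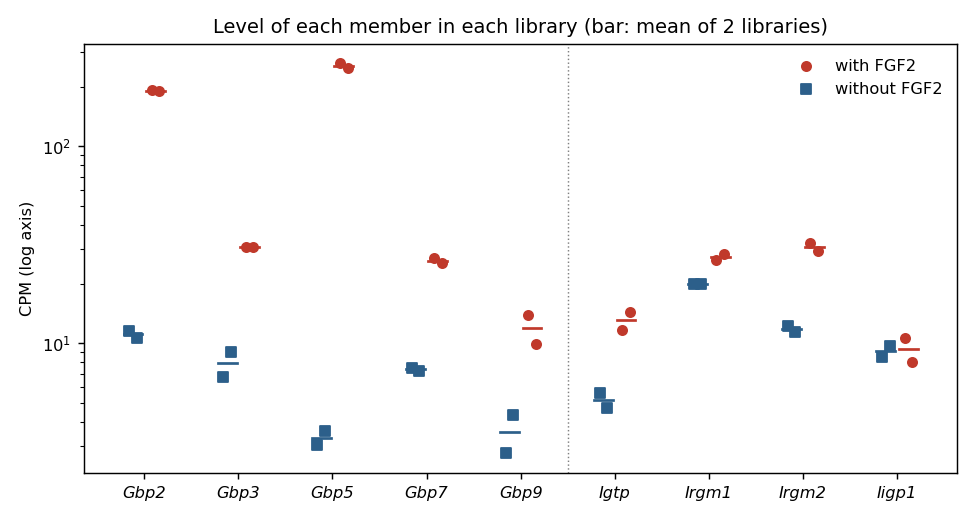
Level of each of the 9 members in CPM on a log axis, by library (red circles, cultures with FGF2; blue squares, cultures without FGF2), with bars at the mean of 2 libraries; GBPs stand left of the dotted line and IRGs right of it. The red and blue points are farthest apart for Gbp5 (263 and 250 against 3.05 and 3.60 CPM) and overlap for Iigp1.

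The IRG members differed less between the conditions than the GBP members did. Irgm2 had 32.4 and 29.3 CPM with FGF2 and 12.2 and 11.4 CPM without FGF2, with a log2 fold change of 1.39 ± 0.14. Igtp had 11.7 and 14.4 CPM against 5.62 and 4.71 CPM, with 1.34 ± 0.21. These neighbours on chromosome 11 thus had nearly the same fold change, 2.62 and 2.53 as ratios of the means.

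Irgm1, the regulator known from its role in resistance to mycobacteria and in autophagy, had the smallest difference among the members that did not overlap. It had 26.6 and 28.4 CPM with FGF2 and 19.9 and 20.0 CPM without FGF2, and its log2 fold change was 0.46 ± 0.13, a 1.38-fold ratio. Iigp1 was the one member without a difference beyond the spread: it had 10.7 and 8.03 CPM with FGF2 and 8.57 and 9.70 CPM without FGF2. Its log2 fold change was 0.03 ± 0.20, and this value ran from -0.19 to 0.22 when each library was left out in turn.

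Among the 9 members, 8 were higher at an adjusted p below 0.05 in the edgeR fit, beside 20.7% of all tested genes, and the same number had no overlap between the conditions, beside 33.6%. DESeq2 called 7 of the 9, Irgm1 being the member not called. Because the genes were picked with these values known, nothing follows from the counts.

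**Figure D2:**
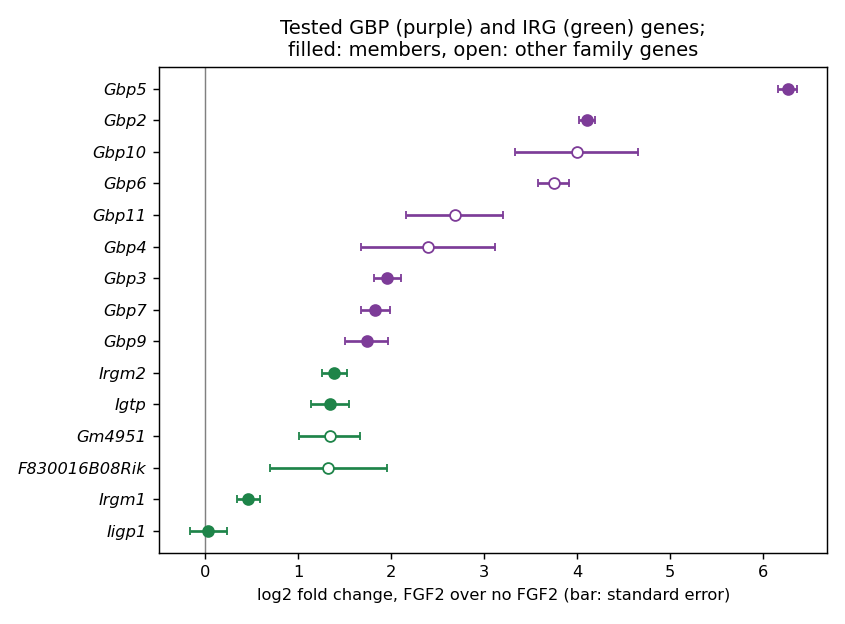
Log2 fold change (FGF2 over no FGF2) with its standard error for all tested GBP genes (purple) and IRG genes (green); filled points are the 9 members and open points the other family genes. Values run from 6.26 for Gbp5 to 0.03 for Iigp1.

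Summed over the 5 GBP members, the level was 527 and 506 CPM with FGF2 and 31.7 and 34.8 CPM without FGF2, a 15.5-fold ratio. The 4 IRG members summed to 81.3 and 80.1 CPM against 46.3 and 45.7 CPM, a 1.76-fold ratio. The make-up of the 9-gene total therefore differed between the conditions. Gbp5 gave 43.3% and 42.7% of the counts on the members with FGF2, and 3.91% and 4.47% without FGF2. Irgm1 gave 4.36% and 4.84% with FGF2 and 25.5% and 24.8% without FGF2. In bulk RNA, more cells that express a gene and more RNA of it per cell cannot be told apart.

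Per kilobase of exon, the order of the members also changed. Without FGF2 the highest level was that of Gbp2 at 4.42 CPM per kilobase, followed by Irgm1 at 3.43, Irgm2 at 3.19, Igtp at 2.55 and Gbp3 at 2.42. The lowest levels per kilobase were those of Iigp1 at 1.57, Gbp7 at 1.31, Gbp9 at 0.686 and Gbp5 at 0.501. With FGF2, Gbp2 was again the highest at 76.0 CPM per kilobase, and Gbp5 moved from the last place to the second at 38.7.

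The remaining members lay well below this pair with FGF2. Their levels per kilobase were 9.44 for Gbp3, 8.36 for Irgm2, 6.46 for Igtp, 4.73 for Irgm1, 4.67 for Gbp7, 2.31 for Gbp9 and 1.61 for Iigp1. The libraries of Irgm1 and Gbp7 overlapped with FGF2, and those of Igtp and Gbp3 and of Gbp9 and Gbp5 overlapped without FGF2, so these neighbours in the order did not differ beyond their spread. Gene length bears on the order: with the longest transcript in place of all exons, Irgm1 stood first without FGF2 at 5.20 CPM per kilobase and Gbp5 reached 68.4 with FGF2. By that length the lowest level without FGF2 was that of Gbp9 at 0.704, and Gbp5 had 0.885.

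**Figure D3:**
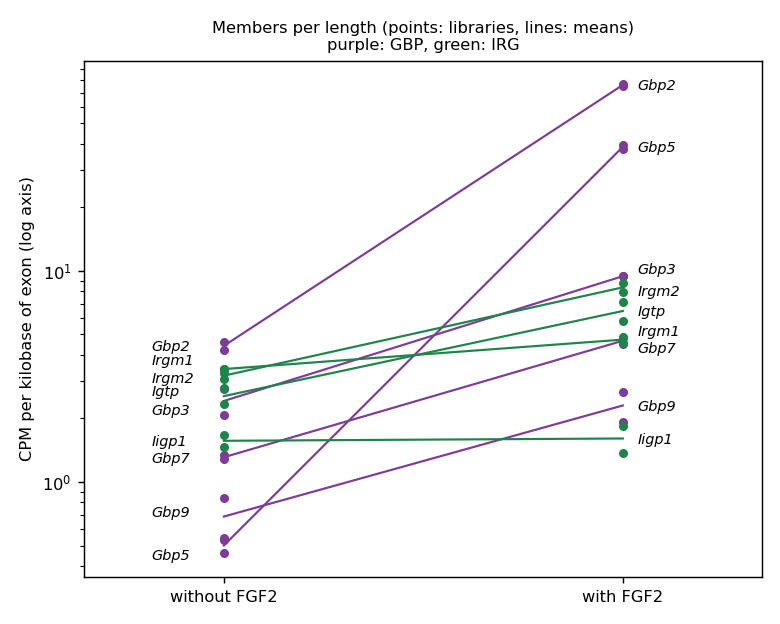
Level of each member per kilobase of exon, in CPM on a log axis, without and with FGF2 (points, libraries; lines join the means; purple, GBPs; green, IRGs). The line of Gbp5 climbs from 0.501 to 38.7 CPM per kilobase across the others, while that of Iigp1 is flat at 1.57 and 1.61.

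Shared sequence limits how well some members can be counted, since reads that fit several places equally well were removed by the mapping filter of the authors. Gbp2, Gbp3, Irgm1 and Iigp1 had no run of 100 bases or more that matched a transcript of another gene at 95% identity or more. Gbp5 had 157 bases at 96.2% identity with Gm14149, Gbp7 shared 637 exon bases with Gm43802 on the same strand, and both of those genes had 0 counts in every library. Gbp9 had 278 bases at 95.7% identity with Gbp4. Igtp and Irgm2 share 162 exon bases, which is 8.01% of Igtp and 4.39% of Irgm2, so reads there could be assigned to neither.

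The GBP genes that are not members were measured in the same libraries. All 4 of the tested genes among 6 were higher with FGF2 and none was lower, beside 20.7% and 19.9% of all genes. Here, and for each list described below as having no lower gene, the number lower was also 0 at an unadjusted p below 0.05 in edgeR, with DESeq2 and with limma-voom. Gbp6 had 348 and 441 counts with FGF2 against 30 and 36 without it, and rose by a log2 fold change of 3.75 ± 0.17 (adjusted p = 4.83e-107, edgeR). Gbp10 had 29 and 31 counts against 3 and 1, a ratio of 16.8 with a 95% counting interval of 6.28 to 64.1 (adjusted p = 4.99e-09, edgeR). Its log2 fold change of 3.99 became 4.92 without library 1 of the cultures without FGF2. Gbp4 had 14 and 15 counts against 3 and 3, a ratio of 5.45 with an interval of 2.23 to 16.1 (edgeR, adjusted p = 0.00255), which DESeq2 did not call. These intervals cover counting error only.

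Gbp11, annotated as a polymorphic pseudogene, had 30 and 34 counts with FGF2 against 5 and 6 without it, a log2 fold change of 2.69 ± 0.52 (adjusted p = 1.36e-06, edgeR). Gbp8 had 2 counts in one FGF2 library and 0 in the others. Gbp4, Gbp6, Gbp8, Gbp10 and Gbp11 have long stretches in common, and Gbp6 and Gbp10 share 29.0% and 46.3% of their exon bases with the model Gm43302, which had 0 counts throughout. Counts could therefore be split among them. The summed level does not depend on such a split, apart from reads removed for mapping to several places, and with Gbp2b at 0 the 6 genes together had 46.6 and 53.0 CPM with FGF2 against 3.90 and 4.25 CPM without FGF2, a 12.2-fold ratio.

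Most of the other IRG genes had too few counts to be tested. Of 13 listed, 2 were tested, and 3 were at 0 in all libraries. Gm4951, an IRG gene on chromosome 18 like Iigp1, had 52 and 49 counts with FGF2 against 23 and 22 without it, and rose by 1.34 ± 0.33 on the log2 scale (edgeR, adjusted p = 2.18e-04). F830016B08Rik had 12 and 15 counts against 7 and 5, a log2 fold change of 1.32 ± 0.63 that did not pass the threshold (edgeR, adjusted p = 0.0758). Ifi47, a well-known interferon-induced IRG, had 4 and 6 counts against 2 and 0, and Tgtp2 had 1 and 1 against 0 and 0, which is at or near the level that cannot be resolved at this depth. Tgtp1 and Tgtp2 are 99.8% identical over 2811 bases, so their counts are uncertain.

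Apart from Irgc1, which lies alone on chromosome 7 and had 0 counts, the listed family genes lie in 5 genomic clusters. Within a cluster the fold changes were not always alike. On chromosome 3, 4 members and Gbp2b occupy 144 kb (142493978 to 142638008, mm10), and the log2 fold changes from left to right were 6.26 for Gbp5, 1.83 for Gbp7, 1.96 for Gbp3 and 4.10 for Gbp2, with Gbp2b silent between the last pair. On chromosome 5, Gbp9 and 5 other GBP genes occupy 332 kb (105014150 to 105346472), and the 5 tested genes had log2 fold changes of 1.74 to 3.99. On chromosome 11, Igtp and Irgm2 lie within 35 kb (58187739 to 58222782) together with Gm12250, which the annotation used here lists as a processed pseudogene. Irgm1 lies in a separate cluster of 9 IRG genes (48861968 to 49096974) of which it alone was tested. On chromosome 18, Iigp1 at 0.03 shares a cluster with Gm4951 at 1.34.

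The nearest genes outside the families had smaller differences than most members. Beside the chromosome 3 cluster, Pdlim5 had a log2 fold change of 0.53 (adjusted p = 3.23e-18, edgeR), Gtf2b 0.45 (edgeR, adjusted p = 8.41e-04) and Bmpr1b 0.26 (edgeR, adjusted p = 0.00929), and Kyat3 did not pass the threshold at -0.24 (edgeR, adjusted p = 0.407). Beside the chromosome 5 cluster, Lrrc8c rose by 0.46 and Lrrc8b fell by 0.19 on the log2 scale (edgeR, adjusted p = 3.38e-11 and 0.00277), and Zfp951 did not pass at 0.08 (edgeR, adjusted p = 0.862). Around both chromosome 11 clusters, none of the 5 tested neighbours passed in edgeR, and the number was also 0 at an unadjusted p below 0.05, with DESeq2 and with limma-voom. Larger differences were seen near Iigp1, where Minar2 and Chsy3, far to the left, fell by 0.75 and 0.41 on the log2 scale (edgeR, adjusted p = 1.48e-04 and 0.00297). To the right lay Smim3, which rose by 1.36 on the log2 scale (edgeR, adjusted p = 9.78e-08) where Iigp1 itself had 0.03, and Dctn4, which rose by 0.19 (edgeR, adjusted p = 6.98e-04).

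**Figure D4:**
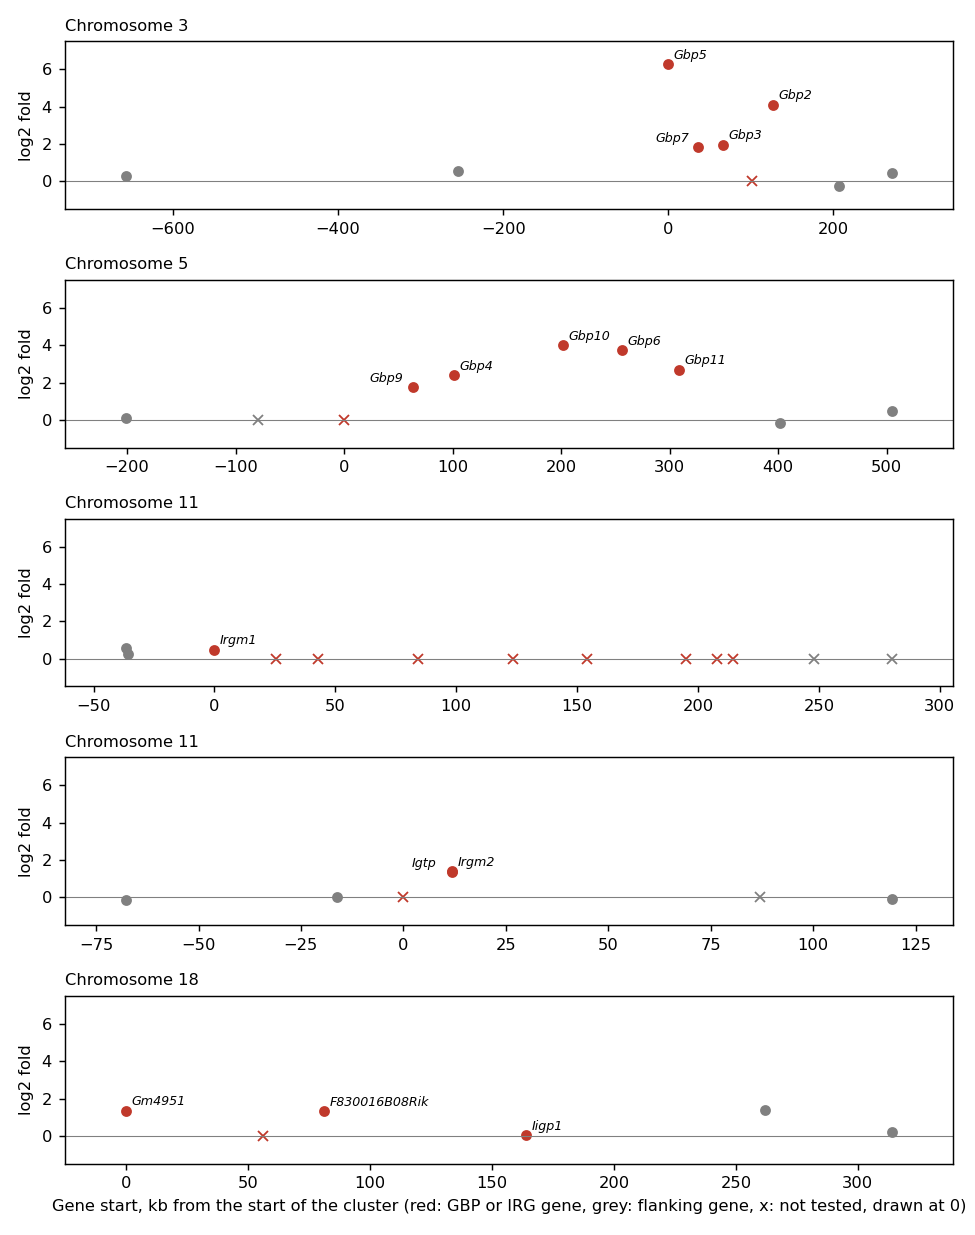
Log2 fold change (FGF2 over no FGF2) against the distance of each gene's left end from the start of its cluster in kb, in 5 panels for the clusters on chromosomes 3, 5, 11 (2 panels) and 18; red, GBP or IRG genes, grey, flanking genes, crosses, genes not tested, drawn at 0; the left neighbours of the chromosome 18 cluster are too far away to be drawn. Family genes reach 6.26 on chromosome 3 and 3.99 on chromosome 5, while the flanking genes drawn stay at or under 1.36.

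Further large GTPases outside both families did not share 1 direction. Mx2, an interferon-induced gene, had 131 and 128 counts with FGF2 against 50 and 72 without it, and rose by 1.26 ± 0.20 on the log2 scale (edgeR, adjusted p = 3.34e-09). Mx1 had 8 and 8 counts against 16 and 15, a log2 fold change of -0.77 ± 0.58 (adjusted p = 0.295, edgeR), and the pair is 95.3% identical over 843 bases. Among the atlastins, which fuse membranes of the endoplasmic reticulum and are structural relatives of the GBPs, Atl3 rose by 0.42 and Atl2 fell by 0.30 on the log2 scale (edgeR, adjusted p = 9.42e-08 and 3.27e-04). Atl1 did not pass at -0.08 (edgeR, adjusted p = 0.456). Of the giant interferon-inducible GTPase genes, Gvin1 and Gm4070 had 0 counts, but they are 100% identical over 9005 bases, and reads from such a stretch would have been removed. Gm1966 had 1 and 6 counts and Gm8995 had 5 and 3 with FGF2, both had 0 without it, and neither was tested.

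The pathway upstream of the families was examined from its ligands downward. The interferon genes listed, Ifng, Ifnb1, Ifna4, Ifnl2 and Ifnl3, had 0 counts in all 4 libraries, which allows up to 0.278 to 0.327 CPM per library. This bound leaves out reads removed for shared sequence. Ifnl2 and Ifnl3 are 97.1% identical over 582 bases, and Ifng has 188 bases at 100% identity with Gm49751. Interferon alpha genes other than Ifna4 were not listed. All 5 tested receptor genes were higher with FGF2 in edgeR, beside 20.7% of all genes, and 3 with DESeq2. Ifngr1, a chain of the interferon gamma receptor, had 47.8 CPM on average with FGF2 and 23.5 CPM without FGF2, a log2 fold change of 1.02 ± 0.11 (adjusted p = 2.63e-20, edgeR). The rise of its partner Ifngr2 was 0.38 (edgeR, adjusted p = 2.11e-06). Of the receptor chains for type I interferon, Ifnar2 rose by 0.60 and Ifnar1 by 0.17 on the log2 scale (edgeR, adjusted p = 0.00459 and 0.0223), and DESeq2 called neither.

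Among the JAK-STAT and interferon regulatory factor genes, 12 of 13 tested were higher in edgeR, 7 with DESeq2, and none was lower. The shares of all genes in edgeR were 20.7% higher and 19.9% lower. Irf1, a transcription factor that binds the ISRE and is needed for much of the interferon gamma response, had 354 and 382 counts with FGF2 against 98 and 75 without it. It had the largest rise of the list, 2.26 ± 0.14 on the log2 scale (edgeR, adjusted p = 2.33e-56). Nlrc5, the activator of MHC class I genes, rose by 1.45 ± 0.13 and Stat3, the main target of IL-6 type cytokines, by 1.11 ± 0.05 (edgeR, adjusted p = 1.85e-28 and 4.15e-118).

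Further factors of the list were Irf7 at 1.45, Irf8 at 0.96, Irf2 at 0.75, Irf9 at 0.65, Stat2 at 0.50, Irf3 at 0.45, Tyk2 at 0.38 and Jak2 at 0.18, all past the threshold in edgeR. Jak1 was not past it, at -0.09 (edgeR, adjusted p = 0.136). Of 6 tested inhibitors of the pathway, 5 were higher in edgeR, 4 with limma-voom and 2 with DESeq2. Socs3 rose by 1.49 ± 0.23 and Ptpn2 by 0.50 ± 0.11 on the log2 scale (edgeR, adjusted p = 7.11e-10 and 6.16e-05). Cish had 0.35 and did not pass (edgeR, adjusted p = 0.228).

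Other interferon-stimulated genes were compared with the members as a list. Of 27 tested, 19 were higher (16 with DESeq2) and none was lower, beside 20.7% and 19.9% of all genes in edgeR. Their median log2 fold change was 1.02 where that of all tested genes was -0.0008. Cxcl10, a chemokine that draws T cells, had 2494 and 2542 counts with FGF2 against 43 and 62 without it. Its log2 fold change of 5.76 ± 0.09 came closest to that of Gbp5 within this list. Parp14 and Dtx3l, a pair of ADP-ribosylation and ubiquitin enzymes, rose by 2.39 ± 0.12 and 1.62 ± 0.12 on the log2 scale (edgeR, adjusted p = 7.03e-80 and 4.66e-43). Of the antigen presentation genes, the immunoproteasome subunit Psmb8 rose by 1.88 ± 0.31 and B2m by 1.05 ± 0.07 (edgeR, adjusted p = 5.98e-09 and 4.09e-56).

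Among the antiviral targets of the list, Ifih1 rose by 1.36, Oasl2 by 1.30, Ddx58 by 1.27, Rtp4 by 1.14, Ifit3 by 1.02, Bst2 by 0.99 and Ifit1 by 0.80 on the log2 scale, all past the threshold in edgeR. Other known interferon targets did not pass it, although both libraries with FGF2 lay above both without for each of the next 3. Isg15, the ubiquitin-like modifier, had 27 and 23 counts with FGF2 against 16 and 17 without it, a log2 fold change of 0.77 ± 0.44 (adjusted p = 0.150, edgeR). Rsad2, which encodes viperin, had 78 and 92 counts against 78 and 61, a log2 fold change of 0.46 ± 0.22 (adjusted p = 0.0759, edgeR). Tap1, the peptide transporter for MHC class I, had 0.20 ± 0.15 (edgeR, adjusted p = 0.296), and Cxcl9, a chemokine known for its dependence on interferon gamma, had 0 counts in all libraries. Some listed targets had lower values with FGF2 and did not pass either. Isg20 had 7 and 8 counts with FGF2 against 12 and 11, at -0.44 ± 0.62 (edgeR, adjusted p = 0.617). Oas1a had 7 and 11 counts against 8 and 14, at -0.115 ± 0.60 (edgeR, adjusted p = 0.907). Oas1a is 97.6% identical to Oas1g over 1861 bases, and Ifit3 is 97.8% identical to Ifit3b over 1700 bases. Reads from Oas1a and Ifit3 could therefore have been removed. Oasl1 had 1 and 6 counts against 8 and 10 and was not tested.

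The genes that prepare, recruit or act with GBPs and IRGs were also followed. GBPs such as Gbp2 and Gbp5 carry a lipid anchor, and IRG loading on vacuoles depends on autophagy conjugation proteins. Of 19 such genes tested, 7 were higher (6 with DESeq2) and 4 lower (1 with DESeq2), beside 20.7% and 19.9% of all genes. Their median log2 fold change was 0.08. Rnf213, a giant ubiquitin ligase, rose by 1.01 ± 0.05, the prenyltransferase subunit Fnta by 0.55 ± 0.09 and Pggt1b, its geranylgeranylation partner, by 0.26 ± 0.09 (edgeR, adjusted p = 3.70e-87, 1.07e-09 and 0.00804). Gabarap rose by 0.35 and Map1lc3b by 0.50, while Gabarapl2 fell by 0.31, Atg16l1 by 0.23 and Map1lc3a by 0.72 on the log2 scale. These autophagy genes thus changed in both directions.

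In the inflammasome list, which holds genes known to act downstream of vacuole rupture by GBPs, 4 of 7 tested genes were higher (3 with DESeq2) and none was lower. These counts stand beside 20.7% and 19.9% of all genes in edgeR. Casp4, the mouse sensor of cytosolic lipopolysaccharide (caspase-11), had 137 and 169 counts with FGF2 against 3 and 2 without it, a ratio of 68.6 with a 95% counting interval of 29.3 to 214. Casp1 had 87 and 76 counts against 24 and 20, a log2 fold change of 2.06 ± 0.29 (adjusted p = 1.13e-11, edgeR). Nlrp3 had 22 and 22 counts against 5 and 1, and rose by 2.99 ± 0.66 on the log2 scale (edgeR, adjusted p = 1.93e-05), or by 4.48 without library 1 and 2.26 without library 2 of the cultures without FGF2. Il18 did not pass, at -0.20 (edgeR, adjusted p = 0.404). Gsdmd, the pore-forming executioner of pyroptosis, had 1 or 2 counts in every library.

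**Figure D5:**
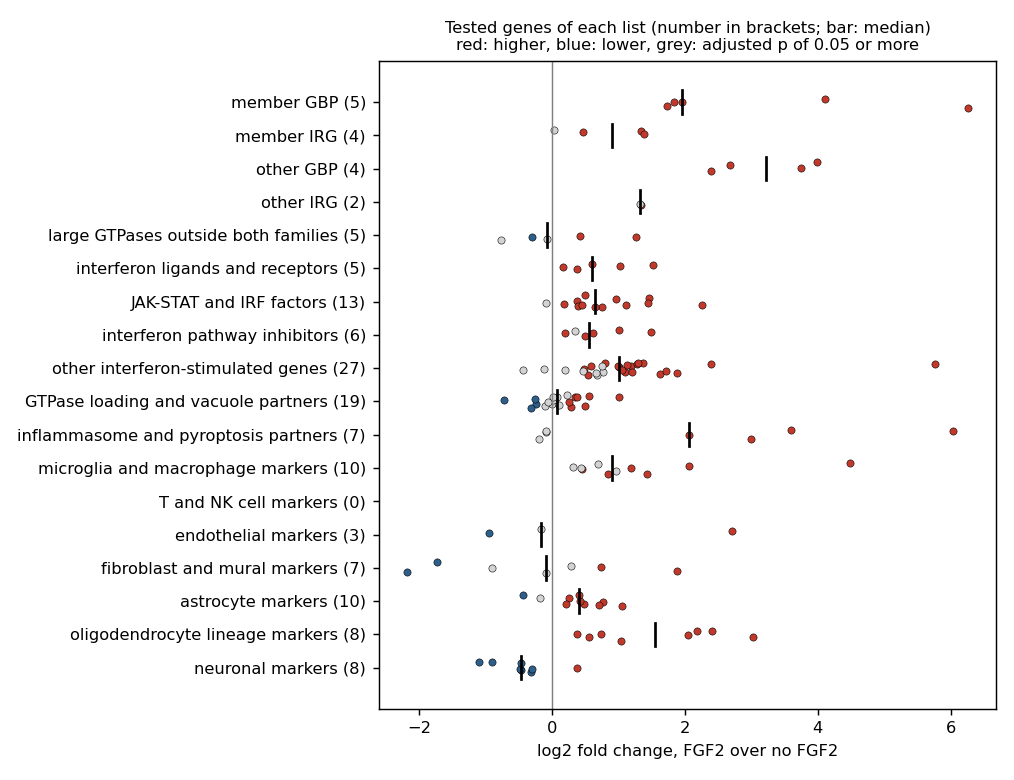
Log2 fold change (FGF2 over no FGF2) of every tested gene, by list, with the number of tested genes in brackets and a bar at the median; red, higher, blue, lower, and grey, adjusted p of 0.05 or more in the edgeR fit. The GBP members and other GBP genes lie right of 1.7, the autophagy and loading partners scatter around a median of 0.08, and the neuronal markers lie mostly left of 0.

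Markers of cell types that could carry these transcripts moved as well, and their part in the result was not tested. Of 14 microglia and macrophage markers 10 were tested, of which 6 were higher (3 with DESeq2) and none lower, with a summed level of 62.4 and 64.6 CPM with FGF2 and 35.4 and 33.2 CPM without FGF2, a 1.85-fold ratio. Csf1r, needed for microglial survival, had 49 and 52 counts against 21 and 21, and Cd14, a lipopolysaccharide co-receptor, had 82 and 82 against 4 and 4. The microglial genes P2ry12, Tmem119 and Aif1 had at most 7 counts in any library and were not tested. The T and NK cell markers, which would mark the usual sources of interferon gamma, were at 0 in 8 of 11 genes, and the summed level of all 11 was 0.551 to 0.952 CPM.

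The glial and neuronal markers differed in opposite directions. The astrocyte markers summed to 12750 and 12630 CPM with FGF2 and 7793 and 7742 CPM without FGF2, with 8 of 10 genes higher and 1 lower. The oligodendrocyte lineage markers had a 3.25-fold ratio of their sums and 8 of 8 tested genes higher, and the neuronal markers a ratio of 0.732 with 7 of 8 lower. Endothelial markers summed to 8.13 to 10.6 CPM with FGF2 and 6.00 to 9.79 CPM without FGF2. Of the 3 tested, Flt1 was higher, Kdr was lower in edgeR but not with DESeq2 or limma-voom, and Pecam1 did not pass. Of 7 tested fibroblast and mural genes 2 were higher and 2 lower.

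The genes whose profile over the 4 libraries lay nearest to the mean profile of the members were C3, Mbp, Nfkb2, Ppnr and Marco, among 12642 candidates with at least 5 CPM on average. Their distances to the mean profile on the centred log2 CPM scale were 0.0839, 0.0898, 0.0990, 0.103 and 0.130, beside a difference of 2.12 between the conditions in the mean profile itself. Over only 4 libraries this likeness means a log2 fold change of about the same size, which ran from 2.03 for Ppnr to 2.19 for Marco. C3 encodes the central complement component, Mbp a myelin protein, Nfkb2 a subunit of NF-kappaB and Marco a scavenger receptor of macrophages.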

How the data were processed

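RNA of 4 libraries of P0 mouse PFC cultures was analysed, 2 with FGF2 at 5 ng/mL and 2 without FGF2. The authors mapped reads to mm10 with HISAT2 2.1.0, kept reads of high mapping quality, and counted them per gene with HTSeq 0.11.2. They deposited raw counts for each library without normalization. The release of the annotation and the strand setting are not given in the sources used here. Among genes covered by another gene for at least 98% of their exon bases, 8 of 844 (same strand) and 159 of 471 (opposite strand) had a count, so the counting kept strands apart.

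Gene IDs were matched to GENCODE M21 (55240 of 55421). The 5 tallies that name no gene stayed out of library sizes; reads on no feature were 43.2 to 45.9% of each library's tallied reads. edgeR 4.0.16 (R 4.3.3) was used with TMM factors (0.9925 to 1.0071), filterByExpr and the robust quasi-likelihood test over 17144 genes, with Benjamini-Hochberg adjustment and a threshold of 0.05. The biological coefficient of variation was 3.90%. CPM use the TMM-adjusted library sizes, and levels per kilobase use the union of a gene's exons. Values after ± are standard errors. DESeq2 1.42.0, limma-voom (limma 3.58.1), other normalizations and filters, a replicate block and leaving out each library were the alternatives. Transcripts were aligned with BLAST 2.17.0. The procedure was tested on simulated data.

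The members, the gene lists and the motifs were chosen with earlier results of these data known. Genes named are the members, the listed family, pathway and marker genes, 2 flanking protein-coding genes on each side of each cluster, and the 5 nearest profiles. Of 202 listed symbols, 200 were matched. The values of 1 listed gene are not reported here.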

Additional observations from a re-analysis of the deposited data

How the results depend on the processing

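With DESeq2, 3999 genes passed the threshold in place of 6949 (2068 in place of 3541 higher, 1931 in place of 3408 lower). Of the interferon and partner genes, DESeq2 called 37 in place of 52 higher and 1 in place of 4 lower. Requiring 10 counts in every library left 2 in place of 5 other GBP and IRG genes higher, because fewer were tested. Per kilobase of the longest transcript, the highest level without FGF2 was 5.20 (Irgm1) in place of 4.42 (Gbp2). Leaving out each library in turn gave 5213 to 6199 genes past the threshold (2642 to 3145 higher, 2558 to 3054 lower). It gave a median log2 fold change of the members of 1.47 to 1.87 (1.74 with all libraries), and 2 to 3 interferon and partner genes lower. The lowest of these last counts came without FGF2 library 1 and without library 1 of the cultures without FGF2. The members higher numbered 8 under each of these settings and 7 with DESeq2.

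No library label shows that equal replicate numbers mark a shared animal or day, and the deviations of same-numbered libraries had a correlation of 0.0066 over 12609 genes. With the replicate number as a block, 6814 genes passed (3476 higher, 3338 lower), 8 members, 5 other GBP and IRG genes and 52 interferon and partner genes were higher, and the members had a median log2 fold change of 1.73.

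Some calls of genes named with a value in the text were lost, all with the direction kept, and the cause was not tested. With DESeq2 these were Gbp4, Irgm1, Ifnar1, Ifnar2, Jak2, Tyk2, Irf3, Irf8, Atg16l1, Gabarapl2, Bmpr1b, Gtf2b, Lrrc8b and Chsy3. Of the loading partners, DESeq2 also called 6 in place of 7 genes higher, and the lost gene is not identified here. Upper quartile factors ended the call of Ifnar1 (log2 fold change 0.142) and made Jak1 pass as lower (-0.115). Without FGF2 library 1 the lost calls were Ifnar2 (0.460), Irf3 (0.239), Gabarapl2 (-0.214), Lrrc8b (-0.141) and Dctn4 (0.118). Without FGF2 library 2 they were Ifnar1 (0.149), Jak2 (0.167), Irf8 (0.741), Atg16l1 (-0.142) and Bmpr1b (0.184). Without library 1 of the other condition they were Gbp4 (2.41), Ifnar1 (0.181), Jak2 (0.149), Atg16l1 (-0.181), Gabarapl2 (-0.293), Bmpr1b (0.238), Gtf2b (0.307) and Lrrc8b (-0.178). Without its library 2 they were Gbp4 (2.37), Atl2 (-0.245), Ifnar1 (0.146), Ifnar2 (0.500), Jak2 (0.209), Tyk2 (0.277), Irf3 (0.330), Irf8 (0.850), Bmpr1b (0.270) and Chsy3 (-0.321). Zfp951, which was not called, had log2 fold changes of -0.10 to 0.24 when each library was left out (0.08 with all). Depth limits the genes under 10 counts.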
